A study of Homo sapiens with 6 samples.

Results

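The comparison described here set cells under high flow, at a volumetric rate of 15 mL/min, against cells under low flow, at 1 mL/min. It compared 4 of the 6 sequenced libraries, 2 for each flow rate, chosen by the treatment named in the labels and not by any measured value. Every library came from MDA-MB-231 cells, an established triple-negative human breast cancer line, in a variant that homes to bone, so all groups share it and no other line stands beside it. The other 2 libraries came from static cells with no flow and show where the levels started. They were also part of the fit, so the filter, the estimated spread and every p-value rest on them too. Fluid was moved past the cells in a 3-dimensional model of the loading that bone metastases meet, and the question is which genes respond to the rate of flow once flow is present. The labels number the libraries of a group as replicates without saying that they came from separate cultures, so every p-value measures the spread between these libraries only.

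Cells sense fluid shear through ion channels, integrins, the glycocalyx and the actin cytoskeleton. Well studied outputs are the immediate early transcription factors, which are induced within minutes by calcium, cAMP and ERK signals, and the YAP and TAZ coactivators, which work through TEAD factors when the cytoskeleton is under tension. In breast cancer cells, TGF-beta signalling and genes such as PTHLH, IL11, CCN2 and ADAMTS1 are linked to the growth of bone metastases. DKK1, a secreted inhibitor of Wnt signalling, restrains bone-forming osteoblasts.

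The 4 libraries held 43965176 to 53279537 counts, and the static libraries 17822642 and 23544307. Genes of the mitochondrial genome took 6.61% to 9.40% of the counts of the 4 libraries, with the extremes both in low flow. By the column names, both low flow libraries ran in 1 sequencing lane and both high flow libraries in a different one, and the alignment files of the lanes are named differently. For every result below, the lane cannot be told apart from the flow rate, and a comparison inside 1 lane was not possible. The low flow replicates also stood apart from each other: on the first principal component (58.6% of the variance over 15524 genes) they lay at -1.7 and 19.7, with high flow at 20.8 and 17.5 and static at -23.3 and -33.1. The second (15.2%) put low flow at -6 and -18.4 and high flow at 18.1 and 3.1. GC content moved with the contrast: across 15182 genes whose mean over the 6 libraries reached 1 CPM, the log2 fold change of high flow against low flow had a Spearman correlation of 0.595 with transcript GC content. It also moved between replicates, since the correlation was -0.488 for the second against the first high flow library. The labels call the cells endothelial cancer cells, but CDH5, CLDN5, EMCN, VWF and ERG, defining markers of endothelium, were below 1 CPM in each library. KRT8 and KRT18, which epithelial cells carry, stood at 157 to 237 CPM in the 4 libraries and the mesenchymal VIM at 3618 to 5031 CPM. Other epithelial markers were low: CDH1, CLDN3, ELF3 and GRHL2 were below 1 CPM in each library, and EPCAM had 2.69 to 3.56 CPM in the 4 libraries. The mesenchymal marker CDH2 was below 1 CPM in each library as well. The endothelial markers PECAM1, TIE1, ESAM and ROBO4 were present, the summed level of the 11 markers was 131.8 and 143.6 CPM in low flow and 150.1 and 148.2 CPM in high flow, and none was called. The hormone receptor genes ESR1 and PGR were below 1 CPM in every library.

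Of 20676 genes tested, high flow had 50 above and 19 below low flow at an adjusted p under 0.05 by edgeR's quasi-likelihood test with Benjamini-Hochberg adjustment, which is 0.242% and 0.0919% of the genes tested. At least 2-fold apart were 15 of the higher and 4 of the lower genes. The higher genes included 39 protein-coding genes and the lower genes 11. The median size of the log2 fold change was 0.73 among the higher and 0.69 among the lower genes, against 0.14 over all genes tested. At an unadjusted p under 0.05 stood 9.62% of the genes, and high flow lay above low flow without overlap in 21.2% and below it in 21.5%, so non-overlap of 2 against 2 libraries sets few genes apart. By direction, 1051 genes were higher and 939 lower at that unadjusted threshold, and 10573 of the 20676 had a log2 fold change above 0. The counts given for gene lists below stand against these. CPM values are counts per 1000000 counts of a library, scaled by TMM, given as mean ± SD over 2 libraries. Levels in bulk RNA do not tell fewer cells of a type from less RNA per cell.

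The counts rested on single libraries. Without high flow replicate 1 they were 3 higher and 1 lower, and without high flow replicate 2 they were 21 and 1. Without low flow replicate 1 they were 145 and 67, and without low flow replicate 2 they were 193 and 101. Each fit without 1 library leaves 1 in that condition, and the spread inside that condition no longer enters. Passing in such fits is given as a description and cannot judge a gene. With offsets for transcript length and GC content, 27 were higher and 13 lower, and 27 and 11 of these were among the 50 and 19 above. With only the 4 libraries compared, 24 were higher and 12 lower. All 69 genes kept their direction with the length and GC offsets. That is a weak check, because every called change was at least 0.463 in size. Medians by GC content, which the offsets brought near 0, ran only from -0.16 to 0.18. ARRDC3 was the 1 gene that passed under all 7 other settings and without each of the 6 libraries in turn. RPL35P5, NR4A3, EGR3, COL1A1, SNAI2, DKK1, EHD1, MYC and AKAP12 passed without any 1 library other than high flow replicate 1, and not without that one. Every other called gene lost its call without 2 or more of the libraries, each taken out alone.

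**Figure D1:**
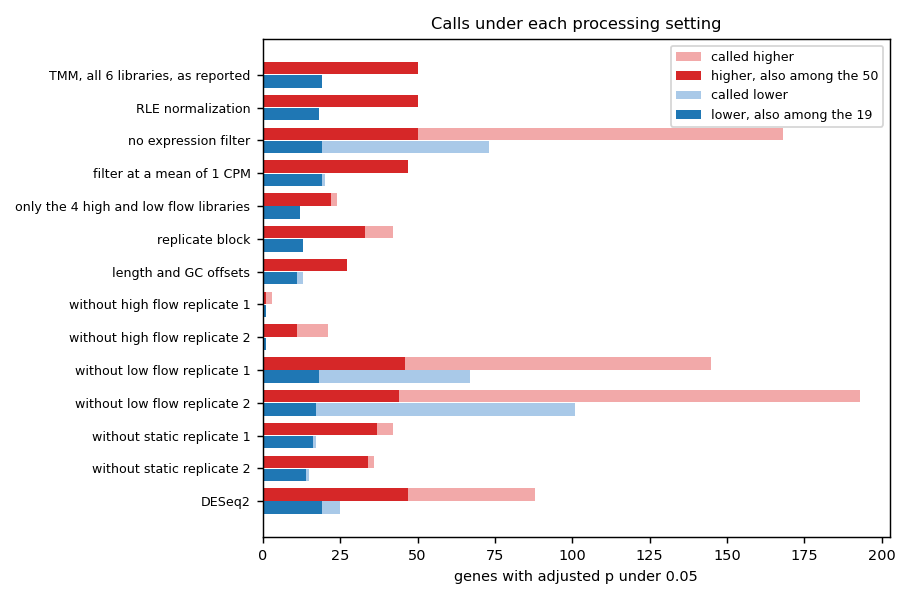
Number of genes with an adjusted p under 0.05 (horizontal axis) that were higher (red) or lower (blue) under each processing setting, with the part shared with the 50 higher and 19 lower genes in the darker shade. Leaving out a low flow library gives 145 or 193 higher genes and leaving out a high flow library 3 or 21.

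**Figure D2:**
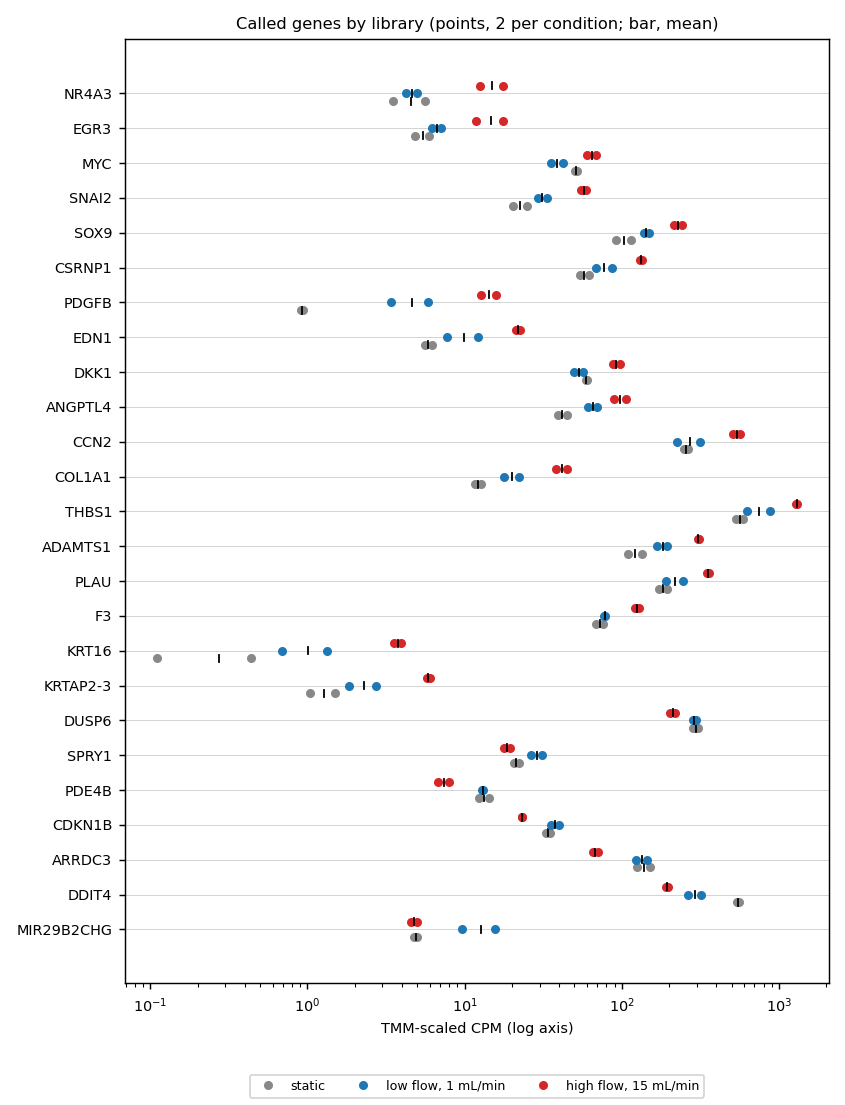
TMM-scaled CPM (log axis) of 25 called genes in each of the 6 libraries, with 2 points per condition (grey static, blue low flow, red high flow) and a bar at the mean. In the top 18 genes both high flow points lie right of both low flow points, and in the bottom 7 genes, from DUSP6 down, they lie left of them.

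Transcription factors of the immediate early class were among the genes that rose with the flow rate. NR4A3, an orphan nuclear receptor induced by cAMP and calcium (chromosome 9, 99821855 to 99866891), had 17.5 and 12.5 CPM in the high flow libraries, 4.98 and 4.22 CPM in low flow, and 3.53 and 5.56 CPM in static. Both high flow libraries lay above the other 4, and static and low flow overlapped. The rise from low to high flow was 3.25-fold (log2 fold change 1.70, SE 0.20, adjusted p = 0.00219). The bases before the NR4A3 start are shown because cAMP-responsive genes carry the CRE, an 8-base element, TGACGTCA, whose half-site is TGACG; capitals mark each half-site on either strand in the 250 bases before the start (chr9:99821635-99821884, GRCh38.p14, + strand, RefSeq).
NR4A3: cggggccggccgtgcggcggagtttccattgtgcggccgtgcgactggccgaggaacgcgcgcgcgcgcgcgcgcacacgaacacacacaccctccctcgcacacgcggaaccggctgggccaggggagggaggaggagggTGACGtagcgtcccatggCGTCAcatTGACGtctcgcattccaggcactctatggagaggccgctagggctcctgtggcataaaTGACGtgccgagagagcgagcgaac
It held 4 half-sites, beginning 109, 91, 83 and 25 bases before the start, and no full CRE. This start is the RefSeq one, and the window runs past the GENCODE gene start of 99821855 given above. By GENCODE, the half-site at 25 bases lies inside the gene. Half-sites were in 28.7% of 11894 promoters of tested genes and in 4 of 28 promoters of the genes called higher. The full CRE was in 2.7% of all promoters and in 0 of these 28.

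EGR3, a zinc finger factor of the early growth response family, had 17.6 and 11.9 CPM in high flow, 7.09 and 6.23 CPM in low flow and 5.95 and 4.87 CPM in static. It rose 2.21-fold (adjusted p = 0.00723). MYC, which drives growth and ribosome production, rose 1.65-fold to 64.3 ± 6.25 CPM from 38.9 ± 5.12 CPM (SD, n = 2; edgeR adjusted p = 0.00427), while its static level of 51.4 CPM lay between them. CSRNP1, a nuclear factor induced by AXIN1, rose 1.71-fold (adjusted p = 0.00387), BHLHE40, a repressor of the circadian and hypoxia pathways, 1.54-fold (adjusted p = 0.0196), and SOX9, a factor of cartilage and progenitor cells, 1.59-fold (adjusted p = 0.00751). SNAI2, which represses E-cadherin in the mesenchymal programme (chromosome 8, 48917604 to 48921740), had 59.5 and 55.3 CPM in high flow and 33.4 and 29.1 CPM in low flow, a 1.84-fold rise (adjusted p = 0.00118). Its static libraries were lower still, at 20.4 and 25.0 CPM. KLF9 went the other way, 1.40-fold lower (adjusted p = 0.0432). BHLHE40 and KLF9 missed the threshold once length and GC were offset (adjusted p = 0.103 and 0.0641).

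Of the 30 immediate early genes tested, NR4A3, MYC, CCN2 and EGR3 were higher and 0 lower. A log2 fold change above 0 was seen in 25 of them, against 10573 of all 20676 genes tested. The list's median was 0.37, against 0.01 over all genes tested, and 0.28 with the length and GC offsets. The AP-1 and EGR members most often used as markers did not pass: FOS had a log2 fold change of -0.24 (adjusted p = 0.932), JUN 0.46 (adjusted p = 0.566) and EGR1 0.01 (adjusted p = 0.993). FOS had 140.4 and 98.2 CPM in high flow and 188 and 92.7 CPM in low flow, so its replicates differed more than its groups. FOSB, JUNB, ATF3 and EGR2 had log2 fold changes of 0.44, 0.24, 0.14 and 0.38 and adjusted p of 0.536 to 0.922. NR4A1 stood at 147 and 69.8 CPM in high flow and 38.7 and 32.3 CPM in low flow, a log2 fold change of 1.61 that did not pass (adjusted p = 0.477). NR4A2 had a log2 fold change of 0.38 (adjusted p = 0.817). FOSL2, KLF10, FOSL1 and KLF4 had log2 fold changes of 0.36 to 0.45 and adjusted p of 0.116 to 0.222.

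Secreted ligands were the next group. PDGFB, the B chain of platelet-derived growth factor (chromosome 22, 39223359 to 39244751), had 15.9 and 12.8 CPM in high flow, 3.42 and 5.84 CPM in low flow and 0.94 and 0.91 CPM in static. The 3 conditions did not overlap, and high flow was 3.08-fold above low flow (log2 fold change 1.62, SE 0.21, adjusted p = 0.00387). EDN1, the precursor of the peptide endothelin-1 (chromosome 6, 12290363 to 12297194), had 22.4 and 21.1 CPM in high flow, 12.2 and 7.73 CPM in low flow and 6.17 and 5.61 CPM in static. Its low flow libraries differed more from each other than its high flow libraries did, and the rise was 2.18-fold (adjusted p = 0.00938). With only the 4 libraries compared, PDGFB and EDN1 did not pass (edgeR adjusted p = 0.0789 and 0.132). Without high flow replicate 1 or 2, PDGFB had log2 fold changes of 1.46 and 1.77, and EDN1 1.08 and 1.17. Without low flow replicate 1 or 2, PDGFB had 1.29 and 2.06, and EDN1 1.49 and 0.83. DKK1 had 97.3 and 87.4 CPM in high flow and 56.7 and 49.9 CPM in low flow, with static at 58.9 and 59.9 CPM, above both low flow libraries. It rose 1.73-fold with the flow rate (adjusted p = 0.00111). ANGPTL4, a secreted inhibitor of lipoprotein lipase, rose 1.5-fold (adjusted p = 0.0206), and CLCF1, a cytokine of the IL-6 family, 1.44-fold (adjusted p = 0.0289). These last 2 genes missed the threshold with the offsets (adjusted p = 0.0847 and 0.116).

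PDGFB and EDN1 were the 2 of 24 tested growth factor, endothelin and receptor genes called higher, and 0 were lower, with a list median of 0.10. HBEGF, an EGF receptor ligand, PDGFA, the A chain of platelet-derived growth factor, and LIF, an IL-6 family cytokine, had log2 fold changes of 0.37, 0.31 and 0.22 (adjusted p = 0.181, 0.399 and 0.443). Of 21 Wnt pathway genes DKK1 was higher and 0 lower. PORCN, the acyltransferase that Wnt ligands need for secretion and which is not on that list, rose 1.55-fold to 44.2 ± 1.41 CPM (SD, n = 2; edgeR adjusted p = 0.00561). Of 22 tested osteolytic and bone metastasis genes DKK1, ADAMTS1 and CCN2 were higher, and the list's median was 0.01. PTHLH, which encodes a hormone that acts on bone through the parathyroid hormone receptor, stood at 14.7 and 10.4 CPM against 8.74 and 7.94 CPM (log2 fold change 0.59, adjusted p = 0.211), and IL11 at 64.7 and 47.0 CPM against 40.4 and 32.4 CPM (0.62, adjusted p = 0.248). Neither gene's groups overlapped and neither passed. The collagenase gene MMP1 and the chemokine receptor gene CXCR4, the latter under 1 CPM, had -0.20 and 0.02 (adjusted p = 0.880 and 0.995).

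Some genes of the matrix and its turnover were among those that rose. COL1A1, a chain of type I collagen (chromosome 17, 50183289 to 50201632), had 45.0 and 37.98 CPM in high flow, 22.3 and 17.9 CPM in low flow and 11.7 and 12.7 CPM in static, so each step of flow lay above the one before. High flow was 2.06-fold above low flow (log2 fold change 1.04, SE 0.12, adjusted p = 0.00111). COL1A2, whose product joins it in type I collagen, had 1 count in high flow replicate 1 and 0 in the other libraries and was not tested. THBS1, the matrix glycoprotein thrombospondin 1 that can activate latent TGF-beta, had 1312 and 1285 CPM in high flow and 877 and 625 CPM in low flow, a 1.73-fold rise (adjusted p = 0.0169). With offsets for length and GC, THBS1 missed the threshold (adjusted p = 0.0815). ADAMTS1, a metalloprotease linked to osteolysis, rose 1.69-fold from 182 ± 18.8 to 308 ± 6.17 CPM (SD, n = 2; edgeR adjusted p = 0.00305). PLAU, the urokinase plasminogen activator, rose 1.62-fold from 218 ± 37.7 to 354 ± 7.87 CPM (SD, n = 2; edgeR adjusted p = 0.00747).

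COL1A1 and THBS1 were the 2 of 34 matrix genes called, with 27 above 0 and a median of 0.23 that was 0.10 with the length and GC offsets. COL7A1 and HSPG2, which encode collagen VII and perlecan, had log2 fold changes of 0.38 and 0.33 (adjusted p = 0.152 and 0.273). ADAMTS1 and PLAU were the 2 of 32 proteases, cross-linking enzymes and inhibitors. PLAT, the tissue plasminogen activator, had 0.36 (adjusted p = 0.141). No integrin or focal adhesion gene of the 24 tested was called by edgeR, 4 higher and 1 lower at an unadjusted p under 0.05. NEDD9, a focal adhesion scaffold, had 46.2 and 36.1 CPM in high flow and 23.1 and 14.9 CPM in low flow (log2 fold change 1.11, adjusted p = 0.140).

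MIR29B2CHG, the host gene of the miR-29b-2 and miR-29c precursors (chromosome 1, 207801518 to 207879096), fell with the flow rate. It had 4.59 and 4.98 CPM in high flow, 9.70 and 15.6 CPM in low flow and 4.80 and 4.96 CPM in static. The high flow and static libraries stood together and low flow apart, and high flow was 2.64-fold below low flow (log2 fold change -1.40, SE 0.19, adjusted p = 0.00387). The mature 3p sequences that this transcript can give are shown because miR-29 is known to target many collagen mRNAs; capitals mark the seed, bases 2 to 8 (GRCh38.p14, - strand, RefSeq).
hsa-miR-29b-3p: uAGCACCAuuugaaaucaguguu
hsa-miR-29c-3p: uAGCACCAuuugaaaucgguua
They lie at chr1:207802450-207802472 and chr1:207801865-207801886, share the seed AGCACCA and are the same over their first 17 bases. The libraries measured polyadenylated RNA, so the mature miRNAs themselves were not measured. The precursor genes MIR29B2 and MIR29C were under 1 CPM and did not pass (adjusted p = 0.219 and 0.350), and they lie within the host gene on its strand.

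Targets of YAP and TEAD rose in part. CCN2, a matricellular protein and the most used marker of YAP activity (chromosome 6, 131948176 to 131951373), had 568 and 509 CPM in high flow, 315 and 226 CPM in low flow and 265 and 250 CPM in static. High flow lay apart, low flow and static overlapped, and the rise was 1.99-fold (log2 fold change 0.99, SE 0.13, adjusted p = 0.00444). AMOTL2, an angiomotin that binds YAP, rose 1.76-fold from 166 ± 35.5 to 293 ± 11.96 CPM (SD, n = 2; edgeR adjusted p = 0.00548). The tissue factor gene F3, which starts blood clotting, rose 1.61-fold from 77.9 ± 0.39 to 125 ± 3.97 CPM (SD, n = 2; edgeR adjusted p = 0.00237). AJUBA, a LIM protein that holds back LATS kinases, rose 1.41-fold (adjusted p = 0.0414). Once length and GC were offset, CCN2 and F3 still passed, and AMOTL2 and AJUBA did not (adjusted p = 0.111 and 0.112). CCN1, with 1130 and 1063 CPM in high flow and 691 and 396 CPM in low flow, had a log2 fold change of 1.01 and did not pass (adjusted p = 0.365), nor did ANKRD1 (0.58, adjusted p = 0.558). These 4 of 25 list genes were higher and 0 lower. The median over the list was 0.10, and 7 of the 25 had a log2 fold change below 0.

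The bases before the starts of CCN2 and F3 are shown as 2 called genes of this list whose windows differ in motifs. Capitals mark GGAATG, the TEAD motif read on either strand, in CCN2 (chr6:131951373-131951622, - strand) and TGANTCA, the AP-1 motif, in F3 (chr1:94541760-94542009, - strand), both from RefSeq on GRCh38.p14.
CCN2: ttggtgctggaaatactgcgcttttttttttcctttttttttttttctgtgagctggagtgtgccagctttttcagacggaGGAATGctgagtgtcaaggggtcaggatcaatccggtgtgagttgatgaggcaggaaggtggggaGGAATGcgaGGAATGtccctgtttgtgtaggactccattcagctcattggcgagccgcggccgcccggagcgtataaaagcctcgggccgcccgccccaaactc
F3: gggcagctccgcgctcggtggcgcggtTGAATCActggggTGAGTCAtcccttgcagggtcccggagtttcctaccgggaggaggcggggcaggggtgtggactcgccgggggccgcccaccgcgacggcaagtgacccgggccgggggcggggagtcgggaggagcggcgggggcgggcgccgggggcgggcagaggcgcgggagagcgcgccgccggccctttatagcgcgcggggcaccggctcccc
CCN2 held 3 TEAD motifs, beginning 169, 104 and 95 bases before the start, and F3 held 2 AP-1 motifs, at 223 and 210 bases. The windows of AMOTL2 and AJUBA held neither motif. Among the 28 higher genes with a promoter sequence, 6 held the TEAD motif (21.4%): NR4A3, CCN2, DKK1, THBS1, ULK1 and EBP. Of 11894 tested genes 9.7% held it, and 4.4% held the AP-1 motif, which F3 and MAP2K3 held among the 28. The motifs do not overlap each other in the windows shown. They were chosen with the calls known, and a match is a description of letters.

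TGF-beta response genes had 5 of 26 higher: COL1A1, SNAI2, CCN2, BHLHE40 and ANGPTL4. None was lower, 20 of 26 were above 0 and the median was 0.25, or 0.16 with the length and GC offsets, where COL1A1, SNAI2 and CCN2 passed. SMAD7, the inhibitory SMAD, had 152 and 135 CPM in high flow, 101 and 65.5 CPM in low flow and 42.0 and 43.7 CPM in static, and did not pass between the flow rates (log2 fold change 0.78, adjusted p = 0.255). The inhibitors of differentiation ID1, ID2 and ID3 had log2 fold changes of 0.27, -0.18 and 0.25 and adjusted p of 0.500 to 0.841.

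DUSP6 and SPRY1, a pair of negative regulators of ERK signalling, were lower under high flow. DUSP6, the phosphatase of ERK, fell 1.38-fold from 290 ± 9.66 to 211 ± 12.3 CPM (SD, n = 2; edgeR adjusted p = 0.0432), with static at 296 CPM. SPRY1, a Sprouty inhibitor of receptor tyrosine kinase signalling, fell 1.56-fold from 28.9 ± 3.15 to 18.5 ± 1.15 CPM (SD, n = 2; edgeR adjusted p = 0.0149), with static at 21.3 CPM. These were the 2 of 23 ERK feedback and output genes called, with 0 higher, 10 of the 23 were above 0, and the list's median was -0.0043. Both passed with the length and GC offsets. DUSP8 and FOSL1, of the same list, had log2 fold changes of 0.65 and 0.45 and did not pass (adjusted p = 0.277 and 0.148).

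The other protein-coding genes that fell have varied roles. ARRDC3, an alpha-arrestin that directs surface receptors to endosomes (chromosome 5, 91368724 to 91383359), had 70.5 and 65.3 CPM in high flow, 123 and 146 CPM in low flow and 125 and 152 CPM in static. Low flow and static overlapped and high flow lay below both, 1.98-fold under low flow (log2 fold change -0.99, SE 0.11, adjusted p = 0.00111). PDE4B, a phosphodiesterase that breaks down cAMP, had 7.93 and 6.80 CPM in high flow, 13.0 and 13.2 CPM in low flow and 12.4 and 14.2 CPM in static (1.78-fold lower, adjusted p = 0.00751). CDKN1B, the cyclin-dependent kinase inhibitor p27, had 23.3 and 23.4 CPM in high flow, 35.5 and 39.9 CPM in low flow and 32.9 and 35.2 CPM in static (1.62-fold lower, adjusted p = 0.00427). DDIT4, an mTORC1 inhibitor, stepped down from 540 and 556 CPM in static to 318 and 265 CPM in low flow and 192 and 196 CPM in high flow (1.5-fold lower between the flow rates, adjusted p = 0.0133).

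RSRP1, a protein rich in arginine and serine, ZNF267, a zinc finger gene, TTC14 and the antisense gene TMEM161B-AS1 were 1.46-fold to 1.60-fold lower. STXBP3, which binds syntaxins in vesicle fusion, was 1.44-fold lower (adjusted p = 0.0330). Of these 5, RSRP1 passed once length and GC were offset (adjusted p = 0.0109). In the list of cAMP signalling and CREB targets NR4A3 was the 1 of 22 higher and PDE4B the 1 lower. PER1, the clock gene, and PDE4D had log2 fold changes of -0.41 and -0.37 and did not pass (adjusted p = 0.133 and 0.175).

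Among the keratins KRT16, a stress keratin of activated epithelium (chromosome 17, 41609778 to 41615899), had 3.95 and 3.55 CPM in high flow, 1.34 and 0.69 CPM in low flow and 0.11 and 0.435 CPM in static. It rose 3.71-fold between the flow rates (log2 fold change 1.89, SE 0.31, adjusted p = 0.0108) and missed the threshold with the offsets (adjusted p = 0.0719). KRTAP2-3, a keratin-associated protein of hair, had 5.73 and 6.01 CPM in high flow, 1.84 and 2.72 CPM in low flow and 1.49 and 1.04 CPM in static (2.57-fold, adjusted p = 0.00561). Both genes stepped up from static to low to high flow without overlap, and at such levels near-identical keratin copies can share reads. They were the 2 of 13 tested keratin genes called. KRT17 had a log2 fold change of 1.54 at 1.01 CPM in high flow (adjusted p = 0.221), and the abundant KRT8 had 0.17 (adjusted p = 0.601).

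The remaining protein-coding genes that rose have varied roles. EHD1, an ATPase of endosome recycling, had 158 and 146 CPM in high flow and 87.4 and 89.5 CPM in low flow (1.72-fold, adjusted p = 0.00111). AKAP12, an anchor of protein kinase A, rose 1.64-fold (adjusted p = 0.00938), and SYNPO, which bundles actin, 1.62-fold (adjusted p = 0.00561). ULK1, the kinase that starts autophagy, rose 1.54-fold (adjusted p = 0.00634), and PLK2, a stress-induced polo-like kinase, 1.51-fold (adjusted p = 0.0173). The kinase MAP2K3 upstream of p38, the regulatory subunit PIK3R3 of PI3 kinase, the adaptor SH2D2A, the NF-kB scaffold CARD10 and the phosphatase subunit PPP1R10 rose 1.41-fold to 1.65-fold. ZNF703, FAM43A, the p53-binding PPP1R13L, the co-chaperone DNAJB2, the sterol isomerase EBP and HIVEP3 rose 1.39-fold to 1.66-fold. Of these 11 genes, PIK3R3 and PPP1R10 passed with the length and GC offsets. EHD1, AKAP12 and PLK2 passed with them as well, while ULK1 and SYNPO did not (adjusted p = 0.0599 for each).

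Some called genes share sequence or position with other genes. Where sequence or exon bases are shared, the counting could split reads between them. RPL35P5, a processed pseudogene (chromosome 7, 66606738 to 66607107), had 3.88 and 3.32 CPM in high flow and 0.97 and 0.62 CPM in low flow, the largest fold called (4.53-fold, adjusted p = 0.00111), while its parent RPL35 had a log2 fold change of 0.06 and 395 CPM in high flow (adjusted p = 0.905). TUBBP1 rose 2.48-fold, with 3.04 and 2.74 CPM in high flow and 1.16 CPM in each low flow library. TMSB4XP4 fell 2.10-fold, with 5.83 and 5.01 CPM against 11.2 and 11.5 CPM. For both, high and low flow lay well apart, and their parents TUBB and TMSB4X had 0.05 and -0.09 (adjusted p = 0.919 and 0.863). HMGN2P5 rose 1.60-fold, and HMGN2 had 0.03 (adjusted p = 0.945). RPL39P5 rose 1.62-fold and shares 41.6% of its exon bases with AMOTL2 on the same strand. AC131009.4, which rose 2.33-fold to 4.001 and 4.64 CPM from 2.11 and 1.60 CPM, lies within ULK1 on its strand (chromosome 12, 131896500 to 131898239). It shares no exon bases with ULK1.

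On chromosome 1, the called nuclear copies of mitochondrial genes, MTND1P23 and MTATP8P1, went opposite ways. MTND1P23 had 2.29 and 3.83 CPM in high flow against 1.10 and 0.67 CPM in low flow (3.50-fold higher, adjusted p = 0.0196). MTATP8P1 had 0.75 and 0.88 CPM against 4.52 and 2.49 CPM (4.26-fold lower, adjusted p = 0.0488). The mitochondrial genes MT-ND1 and MT-ATP8, from which they derive, had log2 fold changes of 0.08 and -0.07 (adjusted p = 0.965 and 0.956). MTATP8P1 shares 22.2% of its exon bases with MTATP6P1 on the same strand. The copies MTATP6P1, MTND2P28 and MTCO1P12 had 0.19, 0.30 and 0.04 (edgeR adjusted p = 0.956, 0.960 and 0.985). MTCO2P12 and MTCO3P12 had 1.80 and 1.15 and did not pass either (edgeR adjusted p = 0.133 and 0.503). The histone pseudogenes H2BC20P, with 8.89 and 9.14 CPM against 18.3 and 14.3 CPM, and H2BC19P, with 5.01 and 4.15 CPM against 9.81 and 7.502 CPM, fell 1.80-fold and 1.89-fold. SNORD4A, a small nucleolar RNA gene on chromosome 17, had 3.77 and 4.45 CPM against 2.09 and 1.75 CPM (2.15-fold higher, adjusted p = 0.0224). It lies within RPL23A on the same strand and shares no exon bases with it. RPL23A had a log2 fold change of 0.13 (edgeR adjusted p = 0.751). AC008687.6, AC008687.3 and AC008687.2, 3 unnamed genes between 49050217 and 49064856 on chromosome 19, rose 3.29-fold to 3.71-fold from at most 0.505 CPM in low flow. AL021368.2 and AC083843.3, also without names of known function, fell 1.83-fold and 2.08-fold to 2.60 and 3.17 CPM and to 3.88 and 3.47 CPM. Of the called genes of this paragraph and the one before, HMGN2P5, AC131009.4, MTATP8P1, H2BC19P, AL021368.2 and the AC008687 genes missed the threshold with the offsets (adjusted p from 0.0599 to 0.186).

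**Figure D3:**
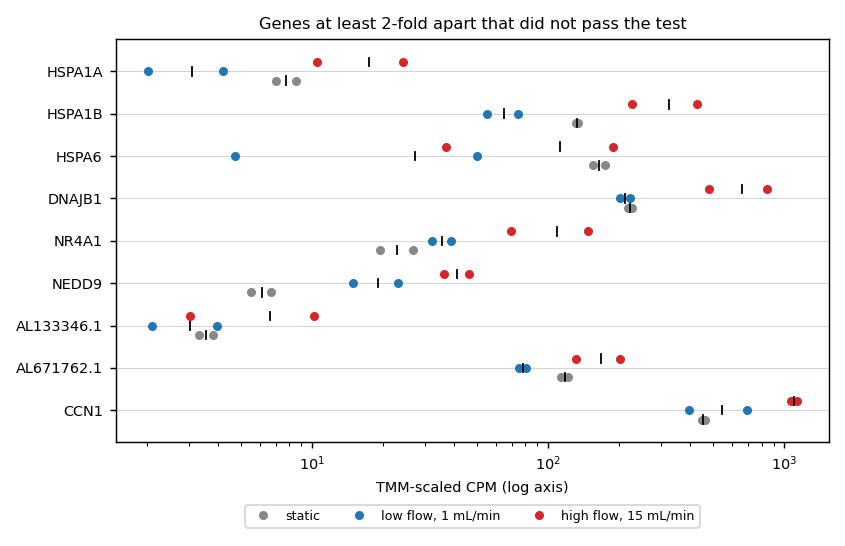
TMM-scaled CPM (log axis) in each library of the 9 genes averaging 4 CPM or more in the 4 libraries that were at least 2-fold apart and did not pass, in the same colours as above. HSPA1B and DNAJB1 show high flow points far from each other, 425 and 226 CPM and 842 and 481 CPM, and HSPA6 points overlap across conditions.

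Among genes averaging 4 CPM or more in the 4 libraries, heat shock genes showed the largest differences that did not pass. These 9 genes of that size were chosen after their values were seen. HSPA1B, an inducible HSP70 gene, had 425 and 226 CPM in high flow, 74.5 and 54.8 CPM in low flow and 134 and 132 CPM in static, a log2 fold change of 2.33 (SE 0.40, adjusted p = 0.308). HSPA1A, its near-identical copy that can share its reads, had 24.3 and 10.5 CPM against 4.17 and 2.02 CPM (2.49, adjusted p = 0.437). DNAJB1, the HSP40 partner of HSP70, had 842 and 481 CPM in high flow, 222 and 202 CPM in low flow and 227 and 218 CPM in static (1.64, adjusted p = 0.219). In these genes both high flow libraries were above both low flow libraries, and replicate 1 was the higher of the high flow libraries. Without high flow replicate 1, HSPA1B and DNAJB1 had log2 fold changes of 1.81 and 1.18, and without high flow replicate 2 they had 2.71 and 1.99. Each of these fits leaves 1 high flow library, so the spread between the high flow libraries no longer enters and passing cannot be judged. The same limit holds for every fit that left out a library of any condition. DESeq2 called HSPA1B and DNAJB1 (adjusted p = 5.83e-06 and 0.000241). Of the 22 heat shock and chaperone genes tested edgeR called 0, and the median was 0.19, with or without the offsets. At an unadjusted p under 0.05, 8 were higher and 0 lower, against 1051 and 939 of all 20676 genes tested. AL671762.1, with a log2 fold change of 1.10 (adjusted p = 0.0760), shares 68.8% of its exon bases with HSPA1B.

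**Figure D4:**
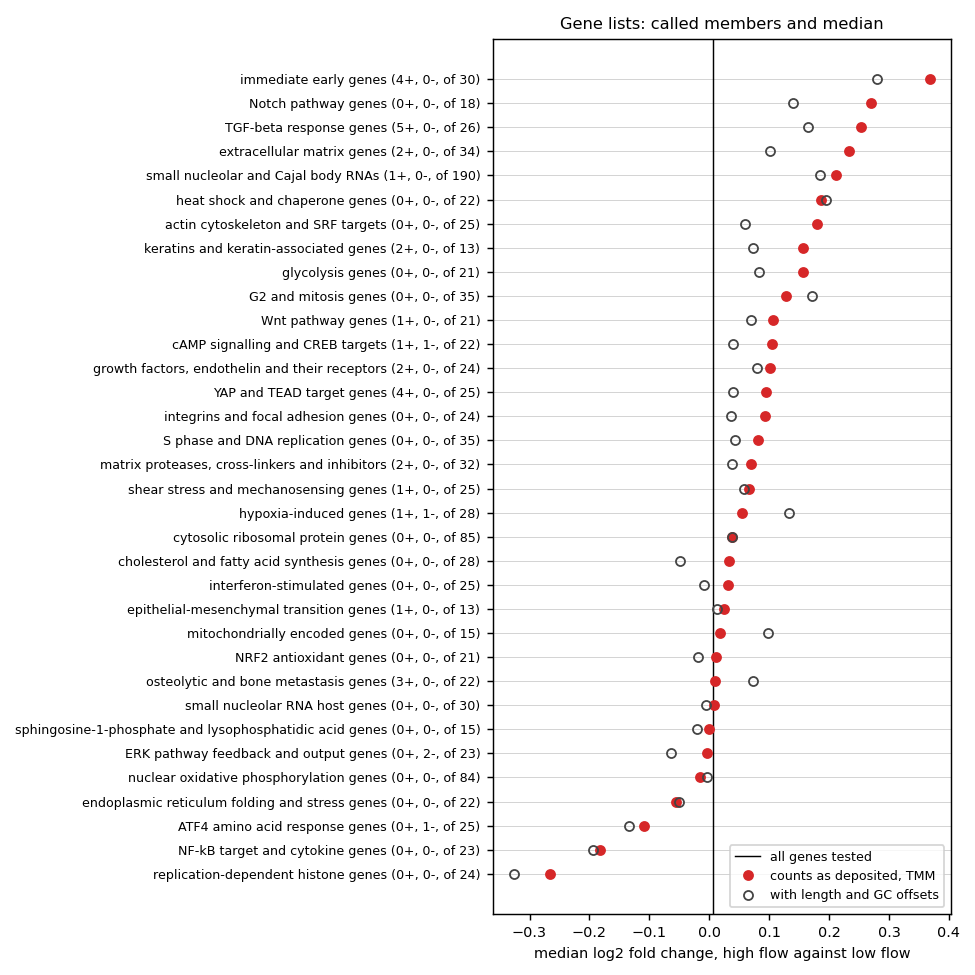
Median log2 fold change of high flow against low flow for each of 34 gene lists (red points), the same with length and GC offsets (open points) and the median over all genes tested (vertical line, 0.01); the numbers after each name are members called higher, called lower and tested. Immediate early genes have the highest median, 0.37, and replication-dependent histone genes the lowest, -0.27. The libraries measured polyadenylated RNA, so the histone list need not follow the levels of histone RNA.

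In most gene lists few or no members passed. Calls fell in 16 of the 34 lists, and 24 of the 69 called genes belonged to 1 or more. Against the share of all genes called higher, 0.242%, the 26 TGF-beta response genes had 5, the 30 immediate early genes 4 and the 25 YAP and TEAD targets 4. Some genes are in more than 1 of these lists, CCN2 in all 3. The lists were chosen with earlier results of these data known, so these counts describe the lists and test nothing. The share over all genes also takes in 5161 genes that averaged below 1 CPM in the 4 libraries. The 25 actin and SRF target genes had 0 called, with 23 above 0 and a median of 0.18 that became 0.06 with the offsets. CNN2 and TGFB1I1 had the smallest p among them (log2 fold changes 0.32 and 0.33, adjusted p = 0.285 and 0.337). Notch pathway genes had 0 of 18 called, with NOTCH1 at 59.4 CPM in low flow and 80.3 CPM in high flow (0.43, adjusted p = 0.0659) and HES1 at 48.2 and 73.1 CPM (0.60, adjusted p = 0.330).

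The shear stress and mechanosensing list had EDN1 as its 1 call among 25. The mechanically gated channel PIEZO1 had 249 and 236 CPM in high flow and 193 and 204 CPM in low flow (log2 fold change 0.29, adjusted p = 0.308), and 0.08 with the offsets. KLF2, a flow-induced factor of endothelium, had 0.13 (adjusted p = 0.916) and PTGS2, the inducible cyclooxygenase, -0.24 (adjusted p = 0.449). CAVIN1, which shapes caveolae, had 0.40 (adjusted p = 0.119). The 23 NF-kB target and cytokine genes had 0 called, 15 below 0 and a median of -0.18, or -0.19 with the offsets. CXCL2 and IL1B had -0.82 and -0.47 (adjusted p = 0.127 and 0.135), IL6 had -0.35 (adjusted p = 0.599), and CXCL8 had 38.2 and 42.3 CPM against 55.2 and 53.8 CPM (-0.44, adjusted p = 0.499).

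The cell cycle lists had no calls by edgeR at this contrast. Of 35 G2 and mitosis genes 30 were above 0, against 10573 of all 20676 genes tested, and the median was 0.13. At an unadjusted p under 0.05, 6 were higher and 0 lower, against 1051 and 939 of all genes tested. PLK1, the polo-like kinase of mitosis, had 40.1 CPM in low flow and 55.3 CPM in high flow (0.46, adjusted p = 0.0717). The same list had a median of -0.43 for low flow against static and -0.35 for high flow against static. Those 2 comparisons share the static libraries, and each shares a flow group with the one described here. The 35 S phase genes had a median of 0.08. The replication-dependent histone genes, 24 tested of 66, had -0.27, with 5 lower at an unadjusted p under 0.05. Their summed level was 98.5 and 91.5 CPM in high flow and 104.2 and 115.6 CPM in low flow. The libraries measured polyadenylated RNA, so counts at these histone genes need not follow the levels of histone RNA. The 85 ribosomal protein genes had a median of 0.04, the 84 nuclear oxidative phosphorylation genes -0.02 and the 15 mitochondrially encoded genes 0.02, and edgeR called 0 in each; unadjusted p was under 0.05 for 0, 1 and 1.

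For hypoxia-induced genes, ANGPTL4 was higher and DDIT4 lower among 28, and VEGFA had a log2 fold change of -0.03 (adjusted p = 0.965). DDIT4 was also the 1 call, lower, among 25 ATF4 amino acid response genes, of which 18 were below 0, with a median of -0.11. Glycolysis genes had 0 of 21 called and a median of 0.16, or 0.08 with the offsets. Interferon-stimulated genes (25), cholesterol and fatty acid synthesis genes (28) and NRF2 antioxidant genes (21) had 0 called and medians of 0.01 to 0.03, with 0, 2 and 3 at an unadjusted p under 0.05. HMOX1, the heme oxygenase of the NRF2 list, had 0.41 (adjusted p = 0.431). Of 190 small nucleolar and Cajal body RNAs SNORD4A was called, 141 were above 0 and the median was 0.21. Their summed level was 305 and 393 CPM in high flow and 315 and 298 CPM in low flow. High flow replicate 1 thus lay between the low flow libraries in this sum, and replicate 2 lay above them. The small nuclear RNA gene RN7SK, outside that list, had -0.53 (adjusted p = 0.628). The libraries measured polyadenylated RNA, so counts at such small RNA genes need not follow the levels of the small RNAs themselves.

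**Figure D5:**
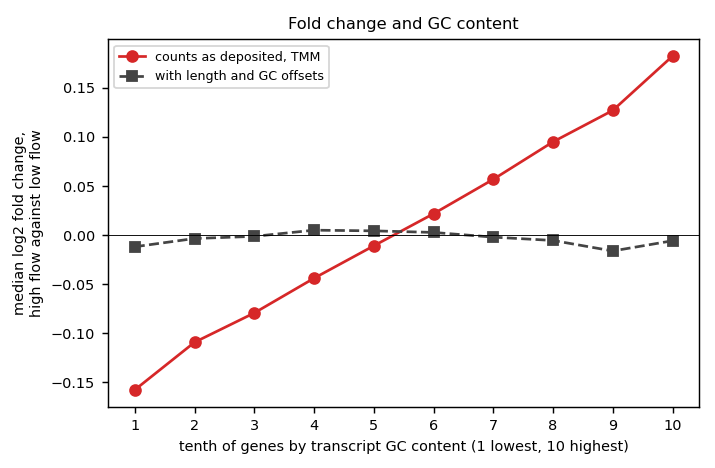
Median log2 fold change of high flow against low flow (vertical axis) in 10 bins of 15175 genes ordered by transcript GC content (horizontal axis), for the counts as deposited and with length and GC offsets. The median runs from -0.16 in the lowest bin to 0.18 in the highest and stays within 0.02 of 0 with the offsets.

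The gradient with GC content touched the called genes as well. Median transcript GC was 54.1% among the higher genes, 43.0% among the lower and 48.5% among all genes tested. In 10 bins by GC of 15175 genes whose mean over the 4 libraries reached 1 CPM, the median log2 fold change rose at each step from -0.16 to 0.18. The lowest bin held 0 of the higher and 7 of the lower genes, and the highest 5 and 0. For low flow against static, libraries of 1 lane, the medians of the lowest and highest bins were -0.01 and 0.06, and for high flow against static, libraries of different lanes, they were -0.18 and 0.25. Libraries of 1 lane and 1 condition also differed with GC content: the correlation was -0.442 for the second against the first static library and 0.109 for the second against the first low flow library. Its part in the single calls was not tested beyond the offsets, with which SNAI2, DKK1, F3, MT-TF and EHD1 had the smallest adjusted p among the higher genes (0.00137 to 0.00323).

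Where the static libraries stood differed among the called genes. Of the 50 higher genes, 22 had both static libraries below both low flow libraries, 6 had them above and in 22 they overlapped. Of the 19 lower genes, 8 had static below low flow, 6 above and 5 overlapping. Among genes that stepped down at each flow rate without overlap were DDIT4, RSRP1 and TMSB4XP4, and among those whose low flow level was the peak were MIR29B2CHG, KLF9, SPRY1 and STXBP3. KLF9 had 83.9 and 79.7 CPM in static, 114 and 134 CPM in low flow and 91.8 and 85.4 CPM in high flow. MYC, DKK1 and PPP1R10 had their lowest level in low flow: PPP1R10, a targeting subunit of phosphatase 1, had 108 and 106 CPM in static, 82.0 and 73.5 CPM in low flow and 125 and 110 CPM in high flow.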

How the data were processed

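Per the labels' protocols, the MDA-MB-231 variant cells were lysed in TRIzol and polyadenylated RNA went into 6 libraries prepared by the stranded mRNA kit of KAPA. The authors deposited raw counts per gene, 60591 rows named by symbol 1 column for each library. STAR, featureCounts and the hg38 build are named in the submitters' processing notes. Versions, settings and the gene annotation are not given in the sources used here. Columns were matched to samples through the column names in the labels.

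The test was edgeR's quasi-likelihood F test (version 4.0.16, R 4.3.3; TMM normalization, robust dispersions, genes kept by filterByExpr at a minimum of 10 counts, all 6 libraries in 1 fit, 3 residual degrees of freedom), two-sided, with Benjamini-Hochberg adjustment over 20676 genes and a threshold of 0.05. The SE of a log2 fold change came from the test statistic. Gene positions, transcript length and GC content came from GENCODE 29 on GRCh38 (19860 of the tested genes). Promoter windows were placed by RefSeq starts, which can differ from the GENCODE ones. Replicates were not copies: the chi-square per degree of freedom was 32.2 between the low flow and 13.0 between the high flow libraries. On simulated counts with 67 or 66 genes changed at each size, the fit of high flow against low flow used 20135 genes. It recovered 67.2% of genes changed 1.5-fold, 88.1% at 2-fold and 98.5% at 3-fold, with 15 false calls. The simulated counts were independent and had the spread estimated by this fit. They held no lane difference and no gradient with GC content, and static and low flow shared 1 mean per gene. These rates therefore describe the simulation and need not hold for the real comparison. The median SE of a log2 fold change at 1 CPM or more was 0.117, and the smallest change called was 0.463 in size.

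Named genes were those called, the 12 highest and 10 lowest of them above 1 CPM with each library's value, a panel of 40 (1 of them is not reported here), and up to 3 further members by p of each list described. The members and lists were chosen with earlier results of these data known. The settings tried were RLE, DESeq2 1.42.0, no filter, a 1 CPM filter, the 4 libraries alone, a replicate block, length and GC offsets (smooth fits with mgcv 1.9.3) and leaving out each library. When 1 library of a condition is left, it is assumed to vary like the others.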

Additional observations from a re-analysis of the deposited data

How the results depend on the processing

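The count of higher genes, 50, was 50 with RLE, 47 with the 1 CPM filter and 42 with the replicate block. It was 88 with DESeq2, which left 3608 genes without an adjusted p, 168 without a filter (37923 genes tested), 24 with only the 4 libraries compared and 27 with the length and GC offsets. The 19 lower genes were 18, 20, 13, 25, 73, 12 and 13 in the same order of settings. Leaving out 1 library at a time gave 3 to 193 higher and 1 to 101 lower genes. Without static replicate 1 there were 42 and 17, and without static replicate 2 36 and 15. Apart from the smaller number of samples and the other number of genes tested, the cause was not tested. No value past the threshold with a named gene reversed its direction under these settings. HSPA1B and DNAJB1, not past the threshold as reported, passed with the replicate block (edgeR adjusted p = 0.00825 and 0.00899) and with DESeq2. DNAJB1 also passed with no filter (edgeR adjusted p = 7.11e-13). Neither passed with RLE, the 1 CPM filter, only the 4 libraries or the offsets. The labels do not say whether the replicate numbers pair the libraries. Deviations of same-numbered libraries correlated at 0.105 between low and high flow, -0.249 between static and low flow and -0.012 between static and high flow. With a single replicate difference in each group, these correlations cannot decide it. With the block, 33 of the 50 and 13 of the 19 genes passed. Counts below about 1 CPM limit folds from pseudogenes and unnamed genes.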

Other observations

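Of the mitochondrial genome, MT-TF was the 1 gene called. MT-TF, the phenylalanine tRNA gene at positions 577 to 647, had 257 and 337 CPM in high flow, 182 and 145 CPM in low flow and 97.5 and 98.6 CPM in static, 1.82-fold higher between the flow rates (edgeR adjusted p = 0.0149). The ribosomal RNA gene MT-RNR1 that follows it had a log2 fold change of 0.74 (adjusted p = 0.213), MT-TV 0.79 (adjusted p = 0.599) and MT-RNR2 0.31 (adjusted p = 0.779), and the high and low flow libraries of MT-RNR2 overlapped. MT-CO1 and MT-ND4, which encode respiratory chain subunits, had 0.01 and 0.02 (adjusted p = 0.994 and 0.993). MT-TQ, a tRNA gene elsewhere in that genome, had -0.81 (adjusted p = 0.386). The libraries measured polyadenylated RNA, so counts at MT-TF and MT-TQ need not follow the levels of the tRNAs themselves. MT-TF, called among 22 tested mitochondrial tRNA genes, did not pass with the replicate block or with only the 4 libraries (edgeR adjusted p = 0.0643 and 0.154). Without high flow replicate 1 or 2, MT-TF had log2 fold changes of 1.05 and 0.65. Without low flow replicate 1 or 2, MT-TF had 1.04 and 0.71. These genes were chosen after their values were seen.

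With the length and GC offsets 2 genes passed that had not passed without them, both lower under high flow: PER1, at -0.60 (adjusted p = 0.00842), and PTGES, a prostaglandin E synthase, at -0.57 (adjusted p = 0.0206).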
